A study of Mus musculus with 3 samples.

Results

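The mRNAs of the proteasome were described in 3 RNA immunoprecipitates from C2C12 cells, a mouse myoblast line that fuses into muscle fibres when serum is lowered. They were taken as every row of the count table whose symbol starts with Psma, Psmb, Psmc, Psmd or Psme followed by a digit. That gave 42 of 15403 genes, namely 17 of the core particle (Psma, Psmb) and 25 of the regulatory classes (Psmc, Psmd, Psme). The symbol rule also took in Psmc3ip, which encodes a partner of meiotic recombinases and is not a proteasome subunit, and the base assembly chaperones Psmd5, Psmd9 and Psmd10, which are absent from the finished particle. The testis form Psma8 and the thymus form Psmb11 were not analysed here.

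All 3 extracts came from day 2 of differentiation in 2% horse serum, and 500 µg went onto beads that carried anti-YB-1, anti-HuR or control IgG. YB-1 and HuR are RNA-binding proteins, and the series asks which mRNAs they bind in muscle cells. There was 1 library per antibody, so no value has a replicate, no test between libraries was made, and intervals cover counting error only. The sources describe no genetic change of the cells. The columns of the table carry a suffix (siCtl) whose meaning the labels leave unsaid.

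The proteasome is the protease that breaks down ubiquitin-tagged proteins. Its core particle stacks rings of alpha subunits, which gate the pore, around rings of beta subunits, of which Psmb5, Psmb6 and Psmb7 encode the active sites. In cells exposed to interferon these can be replaced by the products of Psmb8, Psmb9 and Psmb10 respectively, giving the immunoproteasome. The regulatory particle has a base, whose ATPases (Psmc genes) unfold the substrate, and a lid, which removes ubiquitin. In muscle the pathway is best known for protein breakdown during wasting, through the ubiquitin ligases encoded by Fbxo32 and Trim63.

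The libraries held 10630155 reads (IgG) to 39112714 reads (YB-1), and levels are read counts divided by the authors' size factors. Muscle markers such as Myog and Myh3 were abundant in all 3 libraries, but not at like levels. Myog stood at 45679 (YB-1), 229849 (HuR) and 13754 (IgG), while Acta1 was highest in IgG, at 189406, 103252 and 689855. The 6 muscle markers summed to 610406, 634736 and 892083 in the same order. The IgG library also held RNA of other kinds of cell that both antibody libraries nearly lacked, with 8 endothelial markers summing to 12178 normalized counts against 71.7 (YB-1) and 2.59 (HuR). Of its reads, 20.8% lay in 1368 genes at least 8-fold above both antibody libraries, so a ratio to IgG reflects the make-up of that library as well as the antibody. The part of this in the ratios below was not tested.

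Most proteasome mRNAs lay within 2-fold across the 3 libraries. Of the 42 genes, 40 had reads in every library, and 33 of these had less than 2-fold between their highest and their lowest library, beside 37.0% of 11526 genes with reads in every library and a mean of 10 or more. The median of that fold was 1.58 in members and 2.43 over those genes, and in members it ran from 1.13 for Psmd2 and Psmd6 to 5.92 for Psmc6. The lowest mean of the 40 was 60.4, and the part of count level in this contrast was not tested. Together the 42 genes took 0.710% of YB-1 reads (exact 95% binomial interval 0.707 to 0.712), 0.571% of HuR reads (0.568 to 0.574) and 0.483% of IgG reads (0.479 to 0.487). On the authors' scaling 25 genes were highest in the YB-1 library, 5 in HuR and 12 in IgG, beside 29.5%, 25.7% and 44.8% of 13043 genes.

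**Figure D1:**
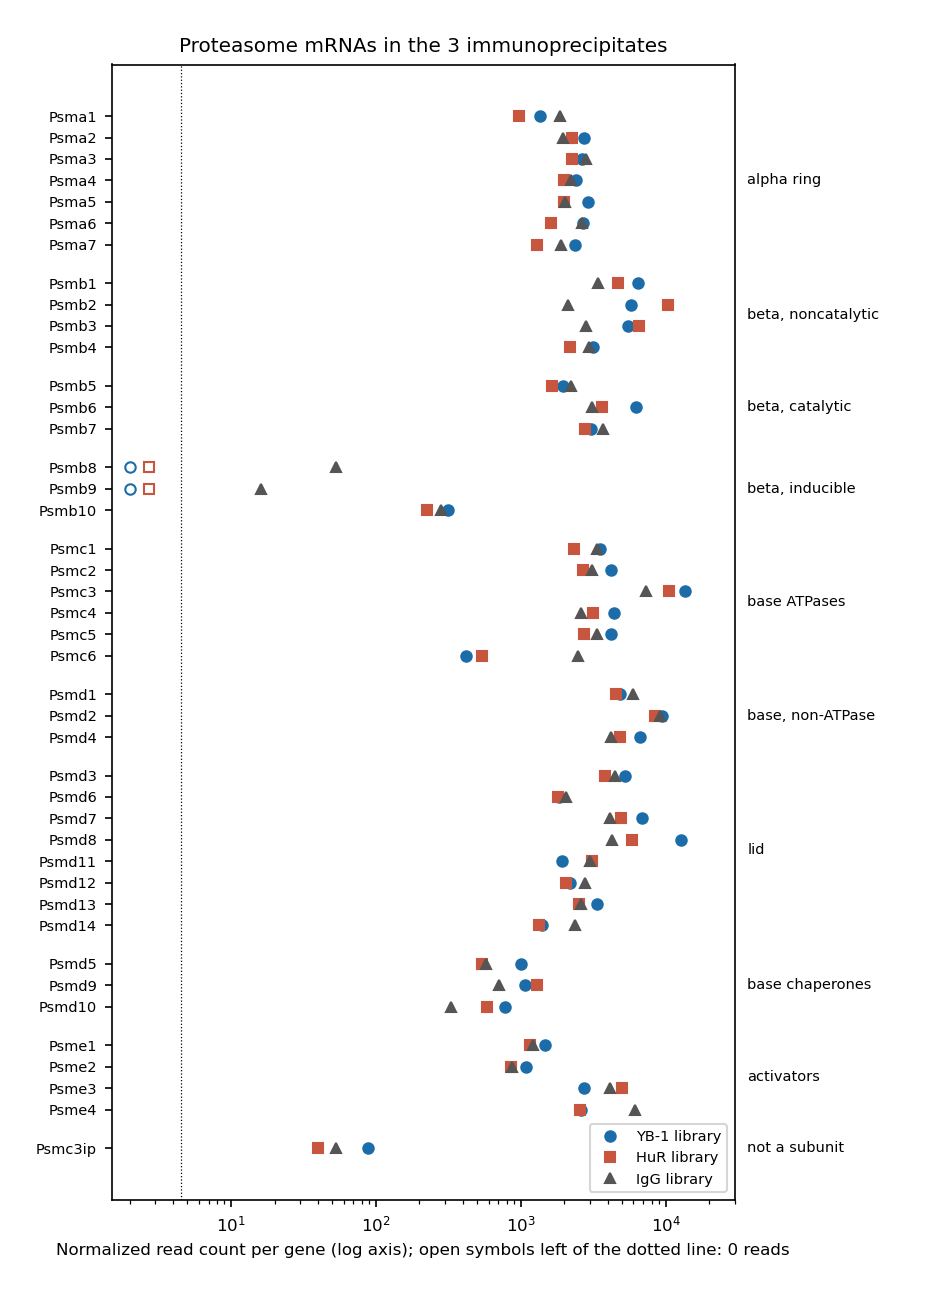
Normalized read counts (log axis) of the 42 proteasome genes in the YB-1, HuR and IgG libraries, grouped by role; each symbol is 1 library. For most genes the 3 symbols lie close together, whereas Psmc6 is far higher in IgG, Psmd8 in YB-1 and Psmb2 in HuR, and Psmb8 and Psmb9 have reads in IgG alone.

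The alpha ring genes all lay within 2-fold, from 1.20-fold between the highest and lowest library for Psma4 to 1.92-fold for Psma1. Their log2 ratio of YB-1 over IgG ran from -0.46 for Psma1 to 0.54 for Psma5. All 7 were lower in HuR than in YB-1, beside 34 of 40 members and 6230 of 11868 genes. Psma1 had a normalized count of 1358, 973 and 1872 in YB-1, HuR and IgG, and exceeded HuR 1.92-fold in IgG (1.76 to 2.11). Psma7 had a normalized count of 2356 (YB-1), 1296 (HuR) and 1889 (IgG), and was 1.82-fold higher in YB-1 than in HuR (95% counting interval 1.71 to 1.93). Psma3 stood at 2646, 2252 and 2813 in the same order, and its interval of YB-1 over IgG, 0.883 to 1.00, reached equality.

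The noncatalytic beta subunits held Psmb2, the member highest in HuR relative to IgG. Psmb2 (GRCm38 chromosome 4, 126677630 to 126709714, plus strand) reached a normalized count of 10433 with HuR, against 5790.3 with YB-1 and 2123 with IgG. It was 4.92-fold higher in HuR than in IgG (4.60 to 5.26) and exceeded IgG 2.73-fold in YB-1 (2.55 to 2.92). Psmb3 had the same order of libraries, with 5526, 6535 and 2845, and was 2.30-fold higher in HuR than in IgG (2.16 to 2.44). Psmb1 was highest in YB-1, at 6499 against 4660.4 and 3442. Psmb4 stood at 3172, 2191 and 2953, with 1.45-fold between its highest and lowest library. Thus Psmb2 and Psmb3 stood high in both antibody libraries, while Psmb4 was lowest in HuR.

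Of the constitutive active-site genes, Psmb6, for the caspase-like site, stood at 6234 (YB-1), 3636 (HuR) and 3125 (IgG). Psmb5, for the chymotrypsin-like site, stood at 1964, 1655 and 2221. Psmb7, for the trypsin-like site, stood at 3071, 2762 and 3717. Psmb6 exceeded its IgG level 1.99-fold in YB-1 (1.89 to 2.11), while Psmb5 and Psmb7 were highest in IgG.

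Among the 6 ATPases of the base, 5 were above IgG in the YB-1 library, beside 28 of 41 members and 5898 of 13022 genes. The interval of Psmc1 (0.993 to 1.11) spanned equality, and Psmc6 was far below. Psmc6 (chromosome 14, 45329788 to 45349705, plus strand) had a normalized count of 418 (YB-1), 542 (HuR) and 2476 (IgG). It was 5.92-fold higher in IgG than in YB-1 (5.40 to 6.50) and 4.57-fold higher in IgG than in HuR (4.13 to 5.05). Its transcript also had the lowest GC content of the 42 genes, at 37.0%. Over the members GC content had a Spearman rho of 0.41 with YB-1 over IgG, beside 0.31 over all genes. With HuR over IgG the values were 0.35 and 0.03. The part of GC content in the Psmc6 values was not tested. Psmc3 collected the largest mean count of all members, at 13519 (YB-1), 10517 (HuR) and 7334 (IgG). Its exons overlap those of Slc39a13 on the opposite strand by 215 bases in the annotation, and the strand setting of the counting is not given. Psmc5 stood at 4172, 2722 and 3387, so it was lowest in HuR, unlike Psmc3, which was lowest in IgG.

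The large base scaffold Psmd2 was nearly level, with a normalized count of 9452 (YB-1), 8394 (HuR) and 9165 (IgG), and Psmd1 stood at 4814, 4535 and 6005. Psmd4, which encodes a ubiquitin receptor, stood at 6607, 4842 and 4215. Psmd4 exceeded its IgG level 1.57-fold in YB-1 (1.49 to 1.65), and Psmd1 was highest in IgG.

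The lid held Psmd8, the member highest in YB-1 relative to IgG. Psmd8 (chromosome 7, 29174188 to 29180701, minus strand) reached a normalized count of 12742 with YB-1, against 5864 with HuR and 4279.6 with IgG. Its YB-1 level was thus 2.98 times the IgG level (2.84 to 3.12) and 2.17 times the HuR level (2.12 to 2.23). Psmd7, with the next largest count of the lid genes, stood at 6869, 4930.3 and 4153. Psmd14, which encodes the deubiquitinase of the lid, was highest in IgG, at 2354 against 1394 in YB-1 and 1334 in HuR. Psmd11 stood at 1929, 3085 and 3019.8, so it was low in the YB-1 library alone.

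Among the base chaperones, Psmd10, also known as gankyrin, stood at 778 (YB-1), 583 (HuR) and 333 (IgG), a 2.34-fold excess of YB-1 over IgG (1.97 to 2.79). Psmd9 stood at 1064, 1299 and 707, and Psmd5 at 1001, 543 and 576. The exons of Psmd9 overlap those of the long noncoding RNA Gm26745 on the opposite strand by 1849 bases. All 3 chaperone genes stood lower in IgG than in YB-1, beside 28 of 41 members and 5898 of 13022 genes.

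The activators, which open the core particle without ATP, were uneven. Psme1 and Psme2, the partners of the activator induced by interferon, were nearly level, with 1466 (YB-1), 1158 (HuR) and 1225 (IgG) for Psme1 and 1083, 859.5 and 874 for Psme2. Reads of Psme2 may be shared with its near-identical copy Psme2b. Psme3, for the nuclear activator, stood at 2748, 4992 and 4149, and was lowest in YB-1. Psme4, for a large activator of nuclei, stood at 2606, 2584 and 6179.6, and was 2.37-fold higher in IgG than in YB-1 (2.26 to 2.49) and 2.39-fold higher than in HuR (2.27 to 2.52).

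Per length of the longest protein-coding transcript, the 14 constitutive core subunits and the 17 constitutive base and lid subunits were at like levels. The median was 2466 normalized counts per kb for the core and 2340.2 for the regulatory subunits in YB-1, 1778 and 1512 in HuR, and 2195 and 1929.7 in IgG. On the mean of the 3 libraries, levels ran from 513 per kb for Psmc6 to 7119 per kb for Psmb2.

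For YB-1 against IgG, 3 of the 41 members that gave a ratio stood at least 2-fold above (Psmd8, Psmb2 and Psmd10), beside 17.0% of all 13022 genes. Another 3 were at least 2-fold lower (Psme4, Psmc6 and Psmb8), beside 32.8% of all genes. The remaining 35 lay within 2-fold. The median log2 ratio was 0.14 for 16 core particle genes and 0.30 for 25 regulatory genes, against -0.17 for all genes. The quartiles of the members were -0.18 and 0.73, and those of all genes -1.56 and 0.72.

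These counts depended on the scaling between libraries. Scaled to total reads, 9 members were at least 2-fold higher and 3 lower, beside 23.5% and 29.2% of all genes. Recentred on 80 ribosomal protein genes, 0 were higher and 19 lower, beside 2.10% and 60.2%. Under the ribosomal scaling 3 members stayed above 0, with log2 ratios of 0.38 for Psmd8, 0.26 for Psmb2 and 0.03 for Psmd10, beside 12.8% of all genes above 0. In the authors' deposited table no gene had an adjusted p below 0.05 (0% of 15403). Among the members the smallest deposited p was 0.0943, for Psmc6 (DESeq2 adjusted p 0.845), with a moderated log2 fold change of -1.75 and a standard error of 1.05. These deposited values rest on 1 library per antibody.

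In HuR over IgG, 2 of 41 members were at least 2-fold higher (Psmb2 and Psmb3), beside 18.9% of 13024 genes, and 3 were lower (Psme4, Psmc6 and Psmb8), beside 31.1%. The median log2 ratio was -0.33 for core particle genes and -0.08 for regulatory genes, against -0.16 for all genes. Scaled to total reads, these medians were -0.13 and 0.11, with 4 members higher and 3 lower, beside 3024 and 3650 of 13024 genes. Recentred on ribosomal protein genes they were -0.82 and -0.58, with 1 higher (Psmb2, at 1.81) and 8 lower, beside 1473 and 5318 genes. The comparisons of YB-1 and HuR with IgG share the IgG library, so the position of Psmc6 and Psme4 in both is not independent.

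In HuR over YB-1, which takes no reads from IgG, 0 of 40 members were at least 2-fold higher (19.3% of 11868 genes) and 2 were lower, Psmd8 and Psmc3ip (10.6% of all genes). Psmc3ip had only 167 reads with YB-1, 46 with HuR and 23 with IgG. Its exons overlap those of Mlx on the opposite strand by 385 bases, and Mlx had 1350, 736 and 185 reads in the same order. Below 0 were 34 of the 40 members, and 6230 of all 11868 genes. The median log2 ratio was -0.48 for 15 core particle genes and -0.36 for 25 regulatory genes, against -0.06 for all genes. Scaled to total reads 34 of the 40 were below 0 (54.3% of all genes), and recentred on the median of all genes 32 were (5934 of 11868). Recentred on ribosomal protein genes, which were themselves lower in HuR, 35 members were above 0, beside 82.5% of all genes, and 5 were at least 2-fold higher, beside 37.3%. The class medians were then 0.26 and 0.38. Scaling to total reads and recentring on the median of all genes moved the log2 ratios by only -0.039 and 0.057. Both thus nearly repeat the authors' scaling, while ribosomal recentring moved the ratios by 0.743. Members were mostly below 0 under the 3 near-alike scalings. They were mostly above 0 under the ribosomal one, which also puts most genes above 0.

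**Figure D2:**
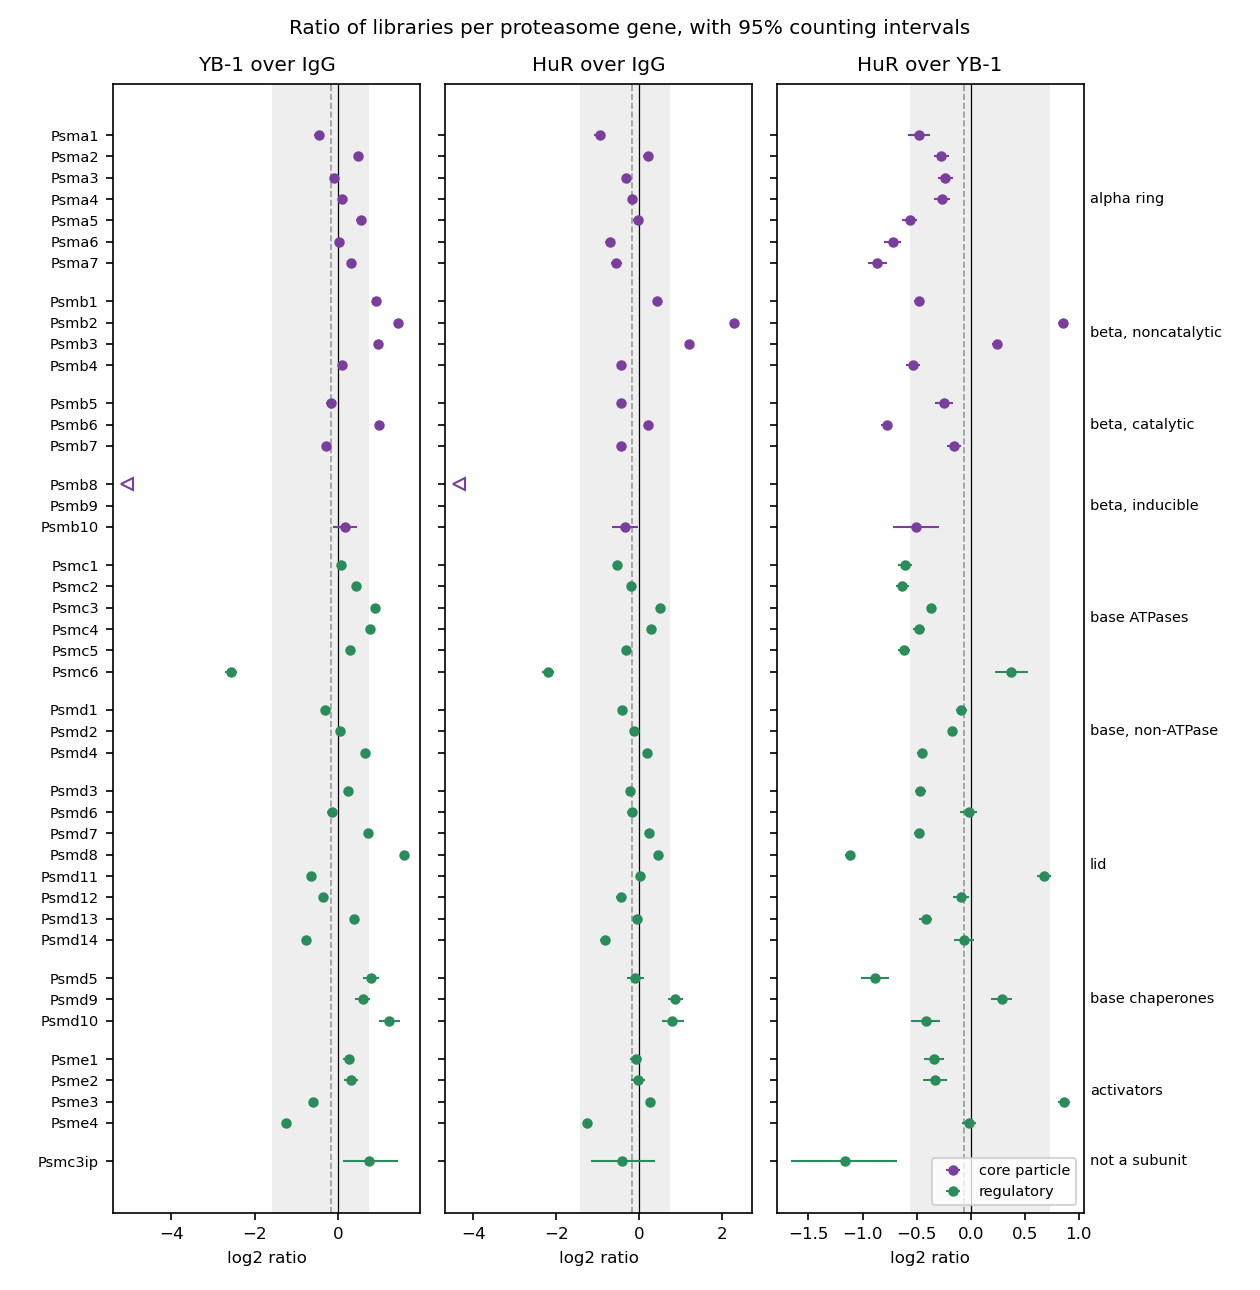
Log2 ratio of each proteasome gene in the 3 comparisons, with exact 95% counting intervals. The grey band spans the quartiles of all genes and the dashed line is their median. Open triangles are ratios with a floor of 3 reads for a library at 0 reads. The horizontal scale of HuR over YB-1 is narrower; Psmc6, Psme4 and Psmb8 stand to the left in both ratios to IgG, and Psmd8 is the lowest subunit in HuR over YB-1.

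The core median lay below the regulatory median by 0.16 on the log2 scale in YB-1 over IgG, by 0.24 in HuR over IgG and by 0.12 in HuR over YB-1. Without inducible and activator genes the last difference turned to 0.042, with the core above. Summed reads gave the opposite order. Core particle genes held 33.7% of proteasome reads with YB-1 (33.6 to 33.9), 36.5% with HuR (36.3 to 36.8) and 30.8% with IgG (30.4 to 31.2).

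One gene, Psmb2, decided much of this. Without it, an alternative chosen after seeing the data, the core share was 31.0% (YB-1), 30.6% (HuR) and 29.5% (IgG). The log2 ratio of summed core reads less that of summed regulatory reads went from 0.37 to 0.08 in HuR over IgG, and from 0.18 to -0.03 in HuR over YB-1. With all members counted, medians and sums put the classes in opposite order in each of the 3 comparisons.

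**Figure D3:**
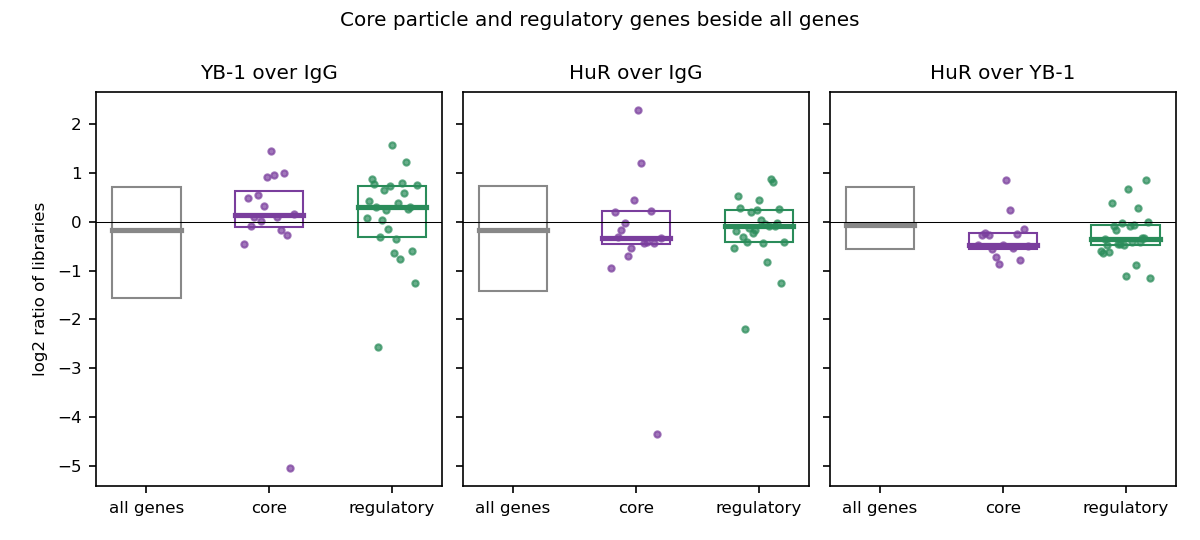
Log2 ratios of core particle genes (purple) and regulatory genes (green), each point 1 gene, with median (thick line) and quartiles (box) beside those of all genes (grey box). The medians of both classes lie close together in each panel, at 0.14 and 0.30, -0.33 and -0.08, and -0.48 and -0.36.

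The inducible active-site genes Psmb8 and Psmb9 were seen in the IgG library alone. Over the whole table, too, a lack of reads was more common with either antibody. Of 15403 genes, 2884 had no reads with YB-1 and 3127 none with HuR, while the IgG library missed only 396. Genes with reads only in IgG were not counted, so how unusual this pattern is was not tested. Psmb8 had 23 reads in IgG (52.8 normalized counts) and 0 in YB-1 and HuR, and Psmb9 had 7 reads in IgG (16.1) and 0 in both others. At the IgG level, 99.3 reads of Psmb8 would stand in the YB-1 library and 61.2 in HuR. Set against a floor of 3 reads per library, Psmb8 was 33.1-fold higher in IgG than in YB-1 and 20.4-fold higher than in HuR. The lower limits of its counting intervals were 24.8 and 15.3. For Psmb9 these folds were 10.1 and 6.21, with lower limits of 6.22 and 3.84. Psmb8 passed the filter on low values through its IgG level alone, and Psmb9, with a mean under 10, did not pass it.

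The partner in the immunoproteasome, Psmb10, behaved differently. Its reads numbered 597 (YB-1), 260 (HuR) and 123 (IgG), or 317, 224 and 282 normalized counts. Its interval of YB-1 over IgG, 0.924 to 1.38, spanned equality. Those of HuR over YB-1 (0.609 to 0.819) and HuR over IgG (0.638 to 0.992) lay below it. Per kb of transcript Psmb10 stood at 242, 171 and 215, against 2647, 2381 and 3205 for its constitutive partner Psmb7. So Psmb10 was present in all libraries well below Psmb7, while Psmb8 and Psmb9 had no reads with either antibody. In GRCm38, Psmb8 spans bases 34197721 to 34201454 of chromosome 17 (plus strand) and Psmb9 bases 34181987 to 34187764 (minus strand). Psmb9 shares 212 exon bases with Tap1 on the opposite strand.

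Markers of immune cells had the same direction as these 2 genes, but so did those of other cell types. The endothelial markers above did, and adipocyte markers summed to 1.06 (YB-1), 10.3 (HuR) and 5964 (IgG). Of 13 immune markers in the table, 12 were at 0 in YB-1 and 12 in HuR, and all had reads in IgG. Their summed level was 15.4 (YB-1), 3.45 (HuR) and 1388 (IgG), with Cd74 at 0, 0 and 369 and Lyz2 at 0, 0 and 275. The part of such RNA in the Psmb8 and Psmb9 values was not tested. All 3 extracts are described as C2C12 cells, a myoblast line, and the source of the RNA of these other cell types is not given.

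Other genes of class I antigen presentation did not share 1 pattern. With YB-1, 2 of 13 stood 2-fold or more above IgG and 6 below, beside 17.0% and 32.8% of all genes. With HuR, 5 stood above and 5 below, beside 18.9% and 31.1%. Tap1, for a subunit of the peptide transporter, had 42 reads with YB-1, 0 with HuR and 37 with IgG. H2-K1, a class I heavy chain, stood at 287, 280.2 and 1257 normalized counts. B2m, the light chain, stood at 5779, 12129.6 and 3364, so it was highest in HuR.

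**Figure D4:**
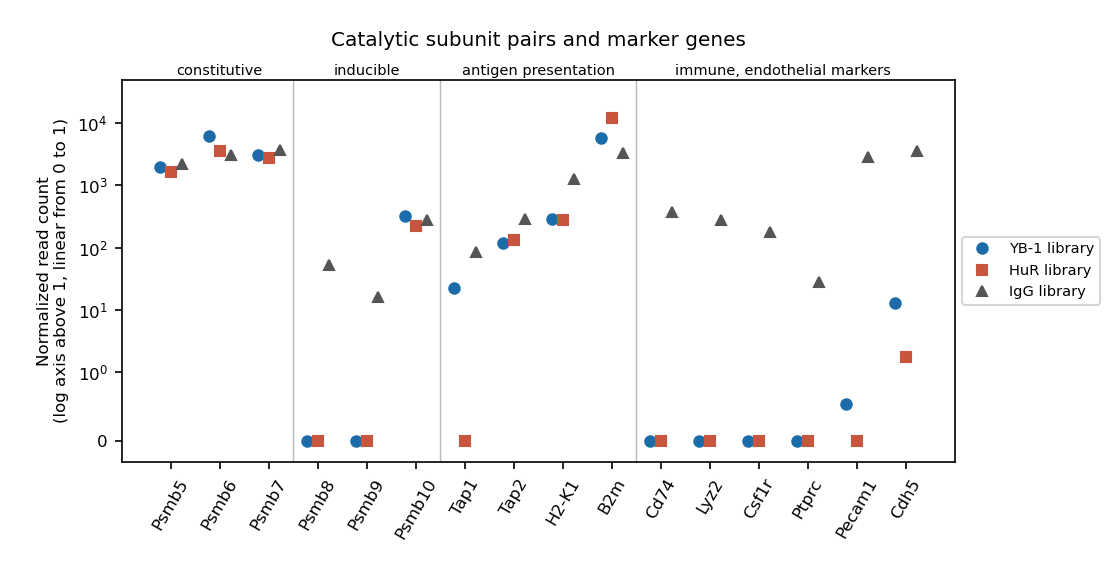
Normalized read counts (log axis above 1, linear from 0 to 1) of the constitutive active-site genes, their inducible counterparts, 4 antigen presentation genes and 6 immune or endothelial markers in the 3 libraries. Psmb8 and Psmb9 are at 0 in both antibody libraries, as are Cd74 and Lyz2, while Psmb10 has reads in all 3 and is lowest in HuR.

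The order of the members between the antibodies was then set beside their 3' UTRs. HuR is known to bind U-rich stretches and AU-rich elements in 3' UTRs. The 3 highest members in HuR over YB-1 were Psme3 (1.82-fold, 1.75 to 1.89), Psmb2 (1.80-fold, 1.76 to 1.85) and Psmd11 (1.60-fold, 1.53 to 1.68). After these came Psmc6, Psmd9 and Psmb3, at log2 ratios of 0.37, 0.29 and 0.24. The 3 lowest were Psmc3ip, Psmd8 and Psmd5. Psmc3ip was 2.24-fold higher in YB-1 (1.61 to 3.17) on few reads, and Psmd5 was 1.84-fold higher (1.68 to 2.02). The sequences below show, for the 3 highest and 3 lowest, for Psmc6 and for Psmb3, the stretch around the match to NNTTNNTTT (a form given for HuR sites) with most T in the 3' UTR of the longest coding transcript of GENCODE M21. Psmb3 was added because its matches were the densest of all members, at 8.47 per 100 nt. The stretches are shown so that the most U-rich stretch of high and low members can be compared by eye; T stands for U, and capitals mark the match.
Psme3, chr11:101323409-101323437, plus strand: tgtttcttggTTTTCCTTTtgtttgattg
Psmb2, chr4:126709628-126709656, plus strand: tgggctcattTTTTTTTTTtctactcttt
Psmd11, chr11:80472590-80472618, plus strand: ttctttttttTTTTTTTTTtttccttttt
Psmc6, chr14:45348995-45349023, plus strand: atttcttatgACTTATTTTatattttgtt
Psmb3, chr11:97713461-97713489, plus strand: tcccttttgtTTTTCTTTTtaataaaatt
Psmd5, chr2:34850647-34850675, minus strand: tttgttgtgaTCTTTTTTTatccagattt
Psmd8, chr7:29175076-29175104, minus strand: tggttacactGCTTCATTTgagtggaaca
Psmc3ip, chr11:101092139-101092167, minus strand: atataaaaatACTTAATTTcctctggatg

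Of the 29 bases shown, T made up 19 in Psme3, 19 in Psmb2, 26 in Psmd11, 19 in Psmc6 and 18 in Psmb3. It made up 18 in Psmd5, 10 in Psmd8 and 11 in Psmc3ip, so Psmd5, low in HuR, held as many as Psmb3 and 1 fewer than Psme3 and Psmb2. The whole 3' UTRs held 6 overlapping matches in 128 nt for Psmb2, 5 in 59 nt for Psmb3, 37 in 1539 nt for Psmd11 and 9 in 1665 nt for Psme3, against 3 in 1193 nt for Psmd8 and 17 in 2842 nt for Psmd5. Psme3, the highest member, thus had 0.541 matches per 100 nt, close to the median of 0.490 over all genes, and Psmc6 had 0.697 and Psmd9 0.497. Among the 5 members with the densest matches, Psmd6 (2.59 per 100 nt) and Psmd2 (1.78) had log2 ratios of -0.02 and -0.17.

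Across the 40 members with a HuR over YB-1 ratio, the density of matches had a Spearman rho of 0.36 with that ratio, beside 0.50 across 10902 genes. With the principal transcript of the annotation in place of the longest, added after seeing the data, the values were 0.41 and 0.49. For HuR over IgG rho was 0.30 in members and 0.19 in all genes, and for YB-1 over IgG 0.08 and -0.16. All points of 1 comparison share the same pair of libraries, and genes are not replicates, so these are descriptions.

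**Figure D5:**
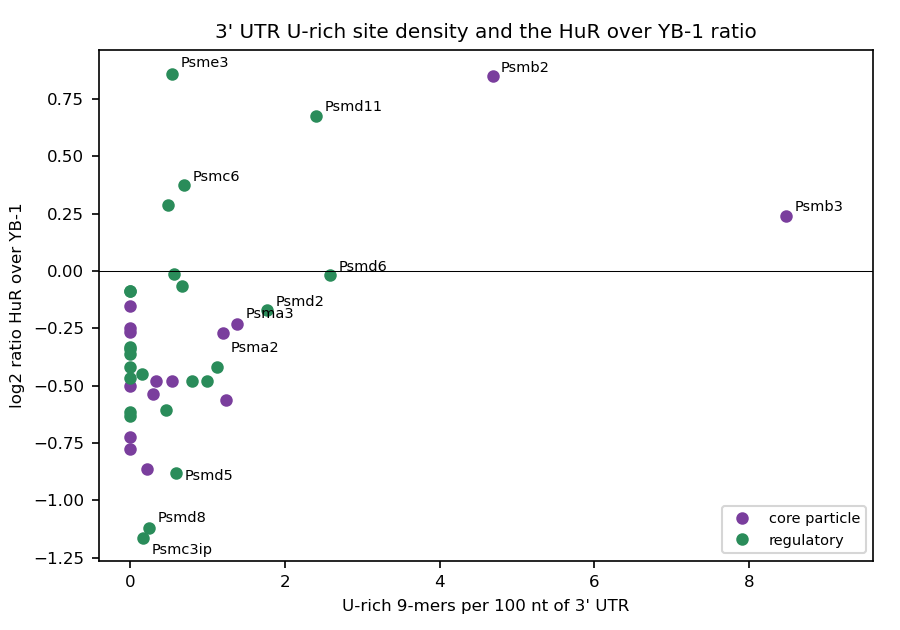
Overlapping matches to NNTTNNTTT per 100 nt of 3' UTR (x) against the log2 ratio of HuR over YB-1 (y) for 40 proteasome genes, core particle in purple and regulatory in green. Psmb2, Psmd11 and Psmb3 combine dense matches with a ratio above 0, Psmd6 and Psmd2 have dense matches with ratios of -0.02 and -0.17, and Psme3 is as high as Psmb2 with 0.541 matches per 100 nt.

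ATTTA, the core of AU-rich elements, was taken as a number of sites and not as a density, unlike NNTTNNTTT above. ATTTA was thus not compared with NNTTNNTTT on a like measure. It was searched on the transcript strand and was present in the 3' UTR of 15 of the 40 members (37.5%), against 69.7% of 10929 genes, and its number had a rho of -0.01 with HuR over YB-1 among members, beside 0.39 over all genes. Psmc6 held 4 of these motifs, Psme3 held 1 and Psmb2 and Psmd11 none. TCATC or TTATC, forms given for YB-1 sites, were present in 37.5% of members and 71.3% of all genes, and NNTTNNTTT in 62.5% and 82.1%.

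The 3' UTRs of proteasome mRNAs are short, and this bears on each of those shares. The median was 295 nt, from 44 nt for Psme2 to 2842 nt for Psmd5, against 1170 nt for all genes. Core particle genes had a median of 162 nt and regulatory genes 379 nt. Among 3' UTRs of up to 500 nt, also added after seeing the data, ATTTA was present in 24.0% of 25 members and 31.6% of 2741 genes, NNTTNNTTT in 44.0% and 49.6%, and TCATC or TTATC in 3 of the 25 members and 29.8% of these genes. Even there members were shorter, with medians of 147 nt against 258 nt.

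Genes that build, bind or feed the proteasome lie outside the symbol rule. With YB-1, 1 of 17 assembly and associated factors stood 2-fold or more above IgG and 4 below, beside 17.0% and 32.8% of all genes. With HuR, 3 stood above and 2 below, beside 18.9% and 31.1%. Between the antibodies 2 were higher in HuR and 1 was lower, beside 19.3% and 10.6%. Akirin2, which carries proteasomes into the nucleus, had a normalized count of 1159 (YB-1), 5562 (HuR) and 1274 (IgG), and was 4.80-fold higher in HuR than in YB-1. Shfm1, the older symbol of the small lid subunit Sem1, stood at 2792, 6535 and 1797. Psmf1, a proteasome inhibitor, went the other way, with 1065, 434 and 482.

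Nfe2l1, for the transcription factor that induces proteasome genes when proteolysis falls short, was highest in IgG, at 11794 (YB-1), 15872 (HuR) and 25666 (IgG). The deubiquitinase Uchl5 stood at 153, 155 and 576, so IgG was 3.76-fold above YB-1 and 3.71-fold above HuR. The chaperones Pomp and Psmg1, which assemble the core particle, stood at 2912, 2285 and 2109 and at 472, 582 and 250.1.

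With YB-1, 3 of 16 ubiquitin and shuttle genes stood 2-fold or more above IgG and 3 below (17.0% and 32.8% of all genes), and with HuR 1 above and 5 below (18.9% and 31.1%). Ubb, which encodes ubiquitin itself, had a normalized count of 34543 (YB-1), 8885 (HuR) and 8649 (IgG). Its YB-1 level was 3.99 times the IgG level and 3.89 times the HuR level, while HuR and IgG stood close together.

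Ufd1l, for a partner of the unfoldase Vcp, was instead highest in HuR, at 5559 against 1757 in YB-1 and 1118 in IgG. The muscle ubiquitin ligases were highest in IgG. Fbxo32 stood at 1349.5 (YB-1), 1543 (HuR) and 10059.9 (IgG), and Trim63 at 667, 609 and 3922. Markers of adult muscle fibres had the same direction, with 8 of 8 at least 2-fold lower in both antibody libraries and a summed level of 60628 (YB-1), 46102 (HuR) and 1153740 (IgG). Their part in these values was not tested.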

How the data were processed

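RNA recovered with antibodies against YB-1 or HuR, or with IgG, was sequenced from C2C12 cells, 1 library each. The submitters' processing notes name mm10, GRCm38, DESeq2, HTSeq 0.6.1 and TopHat2 2.0.10. Settings and strand use of the counting: not given in the sources used here. The authors deposited normalized signal per gene (counts divided by a size factor), log2 fold changes of YB-1 over IgG, a standard error and Wald score, and p-values.

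Whole reads were recovered for 100% of values within 0.01 read. With 1 library per antibody no count model was fitted. Rows with dates for symbols (25 of 15428) were left out. Log2 ratios of normalized counts used a floor of 3 reads for a library at 0, no ratio where both had 3 or fewer, a mean of 10 or more (over all 3 libraries for ratios to IgG, over YB-1 and HuR for HuR over YB-1), and exact 95% Clopper-Pearson intervals, checked on simulated data. The p-values printed are the authors'. Sequences, lengths and coordinates came from GENCODE M21 (GRCm38), the longest protein-coding transcript, and all 42 members matched; 13 share exon bases with another gene, 8 of them a protein-coding one. Python 3.11.15, pandas 2.3.3 and scipy 1.17.1 were used.

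Named genes were the members themselves, the 2 most abundant and the extremes of each role or pathway list, and the inducible genes with their counterparts; others were chosen after their values were seen. The members and lists were chosen with earlier results of these data known. Some genes of the ubiquitin list are not reported here.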

Additional observations from a re-analysis of the deposited data

How the results depend on the processing

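No paired analysis was possible because each antibody has 1 library. For the core and regulatory medians, scaling to total reads gave 0.37 and 0.53 in YB-1 over IgG and -0.13 and 0.11 in HuR over IgG; ribosomal recentring gave -1.06 and -0.89, -0.82 and -0.58, and 0.26 and 0.38 in HuR over YB-1; recentring on all genes gave 0.31 and 0.47, and -0.17 and 0.075. Members at least 2-fold higher and lower in YB-1 over IgG were then 9 and 3, 0 and 19, and 7 and 3 under these scalings; in HuR over IgG 4 and 3, 1 and 8, and 3 and 3; in HuR over YB-1 ribosomal recentring gave 5 and 0. Without inducible and activator genes, 1 member was 2-fold lower in each ratio to IgG, the core median of HuR over YB-1 was -0.37 and the core less regulatory difference there 0.042. With subunits only, 1 was 2-fold lower in HuR over YB-1. By summed reads that difference was 0.20, 0.37 and 0.18 in the 3 comparisons, and without Psmb2 0.10 and 0.075 in the ratios to IgG. The core shares of reads in YB-1, HuR and IgG were 34.4%, 37.3% and 31.2% with subunits only, 35.5%, 39.6% and 34.2% without inducible and activator genes, and 31.0%, 30.6% and 29.5% without Psmb2. The scalings shift every gene alike by construction; leaving out genes and summing reads change which genes carry the value. No member at least 2-fold apart changed sign under a scaling. Of all members, ribosomal recentring changed the sign of 25 of 41 in YB-1 over IgG, 9 of 41 in HuR over IgG and 29 of 40 in HuR over YB-1. Under the other filters, with 0.5 reads added to both libraries and with the authors' moderated fold, the core median in YB-1 over IgG ran from 0.10 to 0.17, every class median kept its sign and the counts stayed within 1.5 times. The IgG library is the shallowest, and held 23 reads of Psmb8, 23 of Psmc3ip and 7 of Psmb9.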
